A study of Mus musculus with 34 samples.

Results

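Promoters that carried the repressive histone mark H3K27me3 without H3K4me3 were collected from dendritic cells grown out of mouse bone marrow (BMDCs). A promoter was the window from 1 kb before to 1 kb after the start of a protein-coding gene on 1 of the 19 autosomes, where the longest transcript set the start. It was taken when it shared at least 1 bp with an H3K27me3 peak at least 1 kb wide, and no bp with an H3K4me3 peak, in unstimulated CTCF-WT cells. Of 20807 promoters, 1487 (7.15%) met this rule and are called H3K27me3-only promoters here. A further 1455 promoters had such an H3K27me3 peak together with an H3K4me3 peak (both-marks promoters), 10270 had H3K4me3 and no such H3K27me3 peak, 812 had narrower H3K27me3 peaks alone, and 6783 had neither mark. These 2 lists chose the promoters, so that their H3K27me3 and H3K4me3 state in unstimulated CTCF-WT cells is a description and no result.

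The cells came from C57BL/6 mice given as 8 weeks old and were grown from bone marrow with GM-CSF for 6 days. All cells carried CreER, a Cre recombinase that tamoxifen activates, expressed from the Rosa26 locus, and all received 4-OH tamoxifen on the first day of culture. CTCF-WT cells carried CreER alone and CTCF-KO cells carried it together with loxP-flanked Ctcf (CTCF fl/fl), so that the controls share the recombinase and the drug. Cells were left unstimulated (WT, KO) or stimulated with LPS, a bacterial activator of TLR4, at 100 ng/ml for 3 h (WTLPS, KOLPS). Peak lists for H3K27me3, H3K4me3, H3K4me1, H3K27ac, CTCF, the cohesin subunit SMC1 and the NF-κB subunit p65 covered these 4 conditions, while STAT5 was profiled in WT and KO cells that had received GM-CSF again for 15 min. BMDCs were selected for the surface protein CD11c, and the study used 2 biological replicates. Each antibody and condition has 1 list. The study describes both peak calling per replicate and merging of replicates, so it is unclear which of these a list holds. Hence there is no replicate spread, and no difference between conditions could be tested. Shares of promoters are given with 95% Wilson intervals in parentheses, and differences between sets of promoters with 95% Newcombe intervals, all of which cover counting error over promoters only.

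H3K27me3 is placed by Polycomb repressive complex 2 and is recognised by Polycomb repressive complex 1, and together they keep developmental genes silent in cells where they are not needed. H3K4me3 marks promoters that are active or ready for transcription, and a promoter with both marks is often called bivalent. Unmethylated CpG islands recruit both kinds of complex. H3K4me1 lies around enhancers and at the edges of promoters. CTCF is a zinc finger protein that stops loop extrusion by cohesin and can separate chromatin domains.

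Of the promoters under the widest H3K27me3 peaks, those with the highest and the lowest CpG content are shown here, because CpG content set H3K27me3-only promoters apart from both-marks promoters and went with their H3K4me3 in the other conditions. Each run is 200 bases on the strand of the gene, with CG dinucleotides in capitals (13 for Hoxc12 and 2 for Gimap7). Coordinates and sequence are from GRCm38.p6 (mm10), the build of the files. The Hoxc12 run is chr15:102936557-102936756 on the plus strand and ends at the base before the start. The Gimap7 run is chr6:48718407-48718606 on the plus strand and ends 14 bp further upstream, because an exon of the overlapping gene Gm28053 begins there.
Hoxc12: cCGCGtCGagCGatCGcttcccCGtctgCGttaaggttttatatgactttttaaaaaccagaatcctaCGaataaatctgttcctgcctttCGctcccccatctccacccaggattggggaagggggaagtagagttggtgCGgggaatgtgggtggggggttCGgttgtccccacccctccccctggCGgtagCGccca
Gimap7: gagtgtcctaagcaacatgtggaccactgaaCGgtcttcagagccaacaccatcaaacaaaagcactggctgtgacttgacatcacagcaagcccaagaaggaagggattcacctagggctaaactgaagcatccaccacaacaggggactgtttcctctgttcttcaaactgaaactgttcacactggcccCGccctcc

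From the 10 H3K27me3-only promoters with the strongest CTCF peaks, 30 bases around a loose match to the CTCF motif under the peak are shown. They come from the 3 promoters where this match lay nearest to the start. Such a match lay under the peak at 4 of the 10. The capitals mark the loose motif, searched on both strands, which is CC, any 3 bases, AG, any 2 bases and GGC. It was also present at 32.0% of H3K27me3-only promoters without a CTCF peak in WT. A match therefore does not show that CTCF binds there. The strict motif (CC, any 3 bases and AGGGGGC) was present at 1 of the 10, Ccdc110. The 3 stretches lie at chr8:45934876-45934905 on the minus strand, 272 bp after the start of Ccdc110, at chr11:103639563-103639592 on the plus strand, 688 bp before the start of Lyzl6, and at chr2:25580956-25580985 on the plus strand, 757 bp after the start of Ajm1. None of them overlaps an annotated exon.
Ccdc110: ggcggcatcCCGCCAGGGGGCaggcgagtg
Lyzl6: agccagcagCCACTAGAGGGCagaagcagc
Ajm1: tctccagggCCTGGAGCTGGCtagagaaag

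The interferon genes lie in the 2 longest runs of neighbouring H3K27me3-only promoters. For 3 of these genes 30 bases are shown, because these similar copies share a sequence element before their starts. The capitals mark 2 copies of GAAA with any 2 bases between them, searched on both strands within 250 bp before the start. This element resembles the element bound by interferon regulatory factors. The runs are chr4:88849912-88849941 on the plus strand (Ifna1, 165 bp before the start), chr4:88683924-88683953 on the minus strand (Ifna2, 31 bp) and chr4:88691375-88691404 on the minus strand (Ifnab, 35 bp). The element lay before 11 of the 15 interferon genes with H3K27me3-only promoters, before 43 of all 1487 (2.89%), and before 3.07% of all promoters.
Ifna1: atgagttaaaGAAAGTGAAAagacaagtgg
Ifna2: gtgaagtaaaGAAAGTGAAAagagaattag
Ifnab: atgagttaaaGAAAGCGAAAacagagttgg

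The lists differed in length. The H3K27me3 lists of WT, WTLPS, KO and KOLPS held 96475, 65880, 95080 and 26960 peaks, covering 117, 56.7, 113 and 18.7 Mb, and the lowest −log10 p in them was 2.72, 3.03, 2.75 and 3.47. The KOLPS list stands apart, and H3K27me3 in KOLPS is to be read against the 5.69% of all promoters that had a peak there. CTCF lists fell from 60537 and 54020 peaks in WT and WTLPS to 20151 and 11576 in KO and KOLPS. Read numbers are not in the lists. Of 20 dendritic and myeloid cell markers, 17 had H3K4me3 and 18 had H3K27ac at the promoter in WT, and none had an H3K27me3-only promoter. In chromatin from many cells, a mark in fewer cells and less of it per cell cannot be told apart.

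H3K27me3-only promoters lay under peaks of a median width of 2712 bp, with a range from 1000 to 58452 bp, against 1818 bp over all 32948 WT peaks of at least 1 kb. Of the 2001 bp in the promoter window, a median of 1030 bp was covered in WT, and 260 promoters (17.5%) were wholly covered. The 1487 promoters lay under 1463 distinct peaks, and 43 shared their peak with another. Just inside the width limit, the peaks over Itga11, Olfr314 and Cdcp1 spanned 1000, 1000 and 1001 bp. Just outside it, those over Chrna4, Gm9857 and Henmt1 spanned 993 bp each. Of the 1033 H3K27me3-only promoters whose gene has more than 1 annotated start, 146 (9.82% of all 1487) had a WT H3K4me3 peak at another start of the same gene. For these genes the absence of H3K4me3 holds only for the start of the longest transcript.

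Counting H3K27me3-only promoters alone, the widest peaks covered single genes as well as gene clusters. Other promoters under these peaks were not counted, and the widest peak over both-marks promoters also spanned 58452 bp. Fam71f1 lay under the widest, chr6:29288925-29347376 (58452 bp), and its window had 2001, 0, 1175 and 0 bp of H3K27me3 in WT, WTLPS, KO and KOLPS. Sytl2, which encodes a synaptotagmin-like protein of vesicle transport, lay under a peak of 57067 bp at chr7:90343293-90400359 and kept the mark in every list, with 2001, 1484, 2001 and 804 bp. Hoxc10, Hoxc11 and Hoxc12, transcription factors of body patterning, shared a peak of 54886 bp at chr15:102922343-102977228. In Hoxc12 the window had 2001, 1193, 2001 and 0 bp, and in Hoxc10 it had 2001, 1304, 2001 and 0 bp, so that KOLPS alone had no peak at either start. Akr1c18, a steroid-metabolising aldo-keto reductase, lay under 50928 bp at chr13:4126448-4177375, with 2001, 2001, 2001 and 853 bp. Gimap1, Gimap6 and Gimap7, small GTPases of lymphocytes, shared 42346 bp at chr6:48699603-48741948 with the overlapping gene Gm28053. The Gimap7 window had 2001, 2001, 2001 and 500 bp and Gimap6 had 2001, 2001, 2001 and 224 bp, while Gimap1, near the edge, had 767, 688, 752 and 0 bp. Reads from Gimap7 and Gm28053 cannot be told apart, since the genes overlap.

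Genes of embryonic patterning were frequent among H3K27me3-only promoters, as counts of 47 gene families defined by symbol show. Of all promoters 7.15% were H3K27me3-only, whereas 21 of 39 Hox genes were (53.8%, 38.6 to 68.4). Other homeobox factors, which specify neural, gut and muscle lineages, had 59 of 117 (50.4%, 41.5 to 59.3), and the neural and muscle bHLH factors had 18 of 41 (43.9%, 29.9 to 59.0). Among signalling ligands of development, 10 of 20 fibroblast growth factors, 8 of 19 Wnt ligands and 4 of 31 BMP and GDF ligands were H3K27me3-only, the last with an interval (5.13 to 28.9) that includes 7.15%. Genes of excitable cells varied, with 21 of 91 potassium channels (23.1%, 15.6 to 32.7), 12 of 39 sodium and calcium channels (30.8%) and 15 of 47 amine and acetylcholine receptors (31.9%). Glutamate receptors had 3 of 25 and GABA and glycine receptors 3 of 21, both with intervals (4.17 to 29.96 and 4.98 to 34.6) that include 7.15%. Members of 1 family often share a peak or a locus: the 21 Hox promoters lay under 15 peaks, so that they are not independent counts. Both-marks promoters made up 6.99% of all promoters. They held 13 of 39 Hox, 51 of 117 other homeobox, 11 of 41 bHLH and 8 of 19 Wnt genes. High shares of these families were thus not particular to H3K27me3-only promoters. Among forkhead factors, 6 of 41 were H3K27me3-only (6.88 to 28.4, which includes 7.15%) and 13 had both marks. These counts come from the lists that chose the promoters and were not tested.

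**Figure D1:**
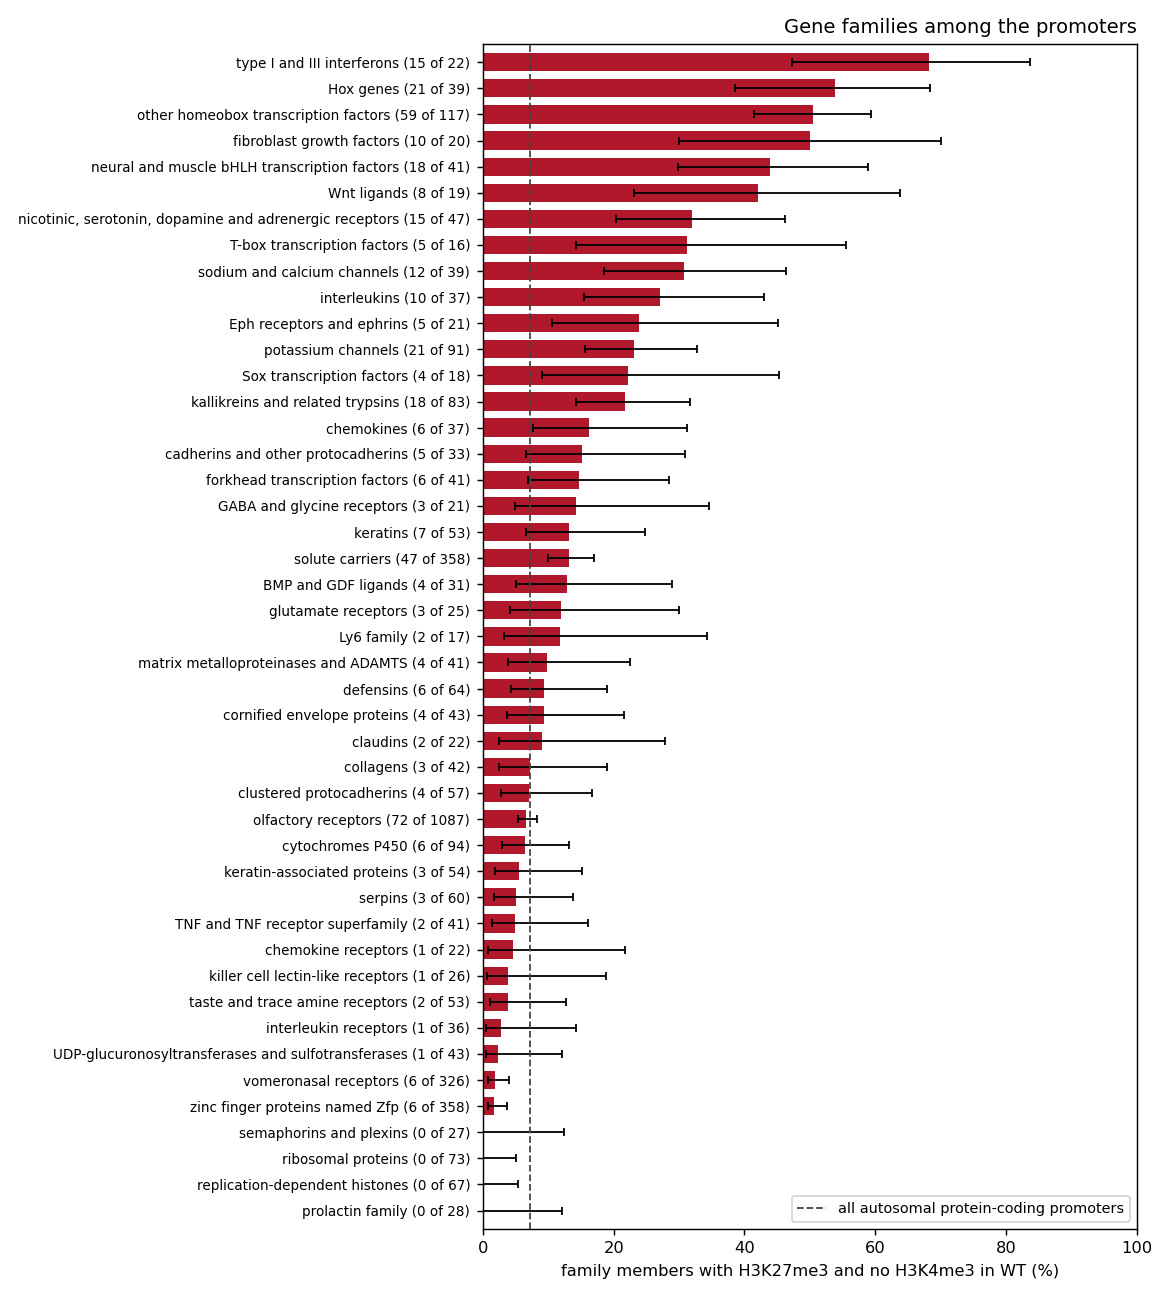
Share of each gene family, in percent of its measured autosomal genes, whose promoter was H3K27me3-only in WT, for families with at least 15 measured genes. Bars give the share, lines its 95% Wilson interval, and the dashed line the 7.15% over all promoters. Interferons (68.2%) and Hox genes (53.8%) lie far right of the line, while zinc finger (1.68%) and vomeronasal receptor genes (1.84%) lie left of it.

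Within the developmental families, H3K27me3 was present in KO at all 21 Hox, 57 of 59 other homeobox, all 18 bHLH, 8 of 10 fibroblast growth factor and 7 of 8 Wnt promoters, beside 90.5% of all H3K27me3-only promoters. In WTLPS it was found at 20, 52, 14, 7 and 6 of them, beside 73.8%, and in KOLPS at 6, 28, 9, 4 and 3, beside 36.9%. Irx2 and Pou3f3, the 2 homeobox promoters whose widest peak had the highest fold, had H3K27me3 over 68, 173, 313 and 0 bp and over 1348, 1011, 547 and 0 bp in WT, WTLPS, KO and KOLPS. Neurod1, a factor of neurons and pancreatic endocrine cells, had 2001, 1227, 2001 and 0 bp, and Nhlh2, of hypothalamic neurons, had 2001, 2001, 2001 and 1812 bp, the broader of the pair in WTLPS and KOLPS. Cdx2, of the intestine, had 2001, 2001, 2001 and 411 bp, and Sox17, of endoderm and endothelium, had 579, 2001, 968 and 79 bp. Wnt3a had 1170, 668, 1213 and 528 bp, and Fgf20 had 2001, 796, 2001 and 416 bp. Apart from Irx2, Neurod1 and Pou3f3, these promoters had a peak in all 4 lists.

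Cytokine genes formed a separate group. The type I and III interferons, which are secreted antiviral cytokines, had 15 of 22 promoters H3K27me3-only (68.2%, 47.3 to 83.6), under 12 peaks of a median of 10329 bp. All 15 had H3K27me3 in WTLPS and in KO, and 14 had it in KOLPS, where the share over all promoters was 5.69%. Ifna1 had 2001, 2001, 2001 and 936 bp in WT, WTLPS, KO and KOLPS, Ifna16 had 2001, 1315, 2001 and 970 bp, and Ifna15, the only one without a KOLPS peak, had 2001, 694, 463 and 0 bp. None of the 15 had H3K4me3 in any condition, while 7 had H3K4me1 in WT and 5 had CTCF in WT, none of these in KO. The Ifna genes among the 15 are similar copies, so reads and peaks may be shared among these genes. Interleukins had 10 of 37 and chemokines 6 of 37. Il5 and Il13, cytokines of type 2 immunity, had 1996, 1115, 1190 and 0 bp and 1038, 158, 0 and 0 bp, and Il22, of barrier defence, had 790, 0, 1621 and 0 bp. Il13 was the one of the 3 without a peak in KO.

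A few markers of other blood lineages had H3K27me3-only promoters. They were Cd3e and Cd3g of 11 T cell markers, Pax5 and Blk of 7 B cell markers, Ncr1 of 5 NK cell markers and Mpo of 5 granulocyte and mast cell markers. Over all promoters the share was 7.15%. The intervals of the T cell (5.14 to 47.7), NK cell (3.62 to 62.4) and granulocyte and mast cell markers (3.62 to 62.4) include it. That of the B cell markers (8.22 to 64.1) does not, but it rests on 7 genes. Pax5, the factor that commits B cells, lay under 13566 bp and had 2001, 1910, 2001 and 271 bp of H3K27me3 in its window in WT, WTLPS, KO and KOLPS. The B cell kinase gene Blk had 1563, 384, 0 and 0 bp, and Mpo, the myeloperoxidase of neutrophil granules, had 699, 216, 932 and 0 bp. The T cell receptor partner gene Cd3e had 1331, 422, 1197 and 0 bp, its neighbour Cd3g had 1350, 2001, 1162 and 1134 bp, and the NK receptor gene Ncr1 had 2001, 538, 2001 and 0 bp. H3K4me3 was absent from all 6 in WT by the rule. None of 5 erythroid and 7 stromal and endothelial markers, 19 Polycomb and Trithorax subunits or 9 Toll-like receptors had an H3K27me3-only promoter. Of the 7 stromal and endothelial markers, however, 4 had an H3K27me3 peak in WT, 3 of them at both-marks promoters.

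**Figure D2:**
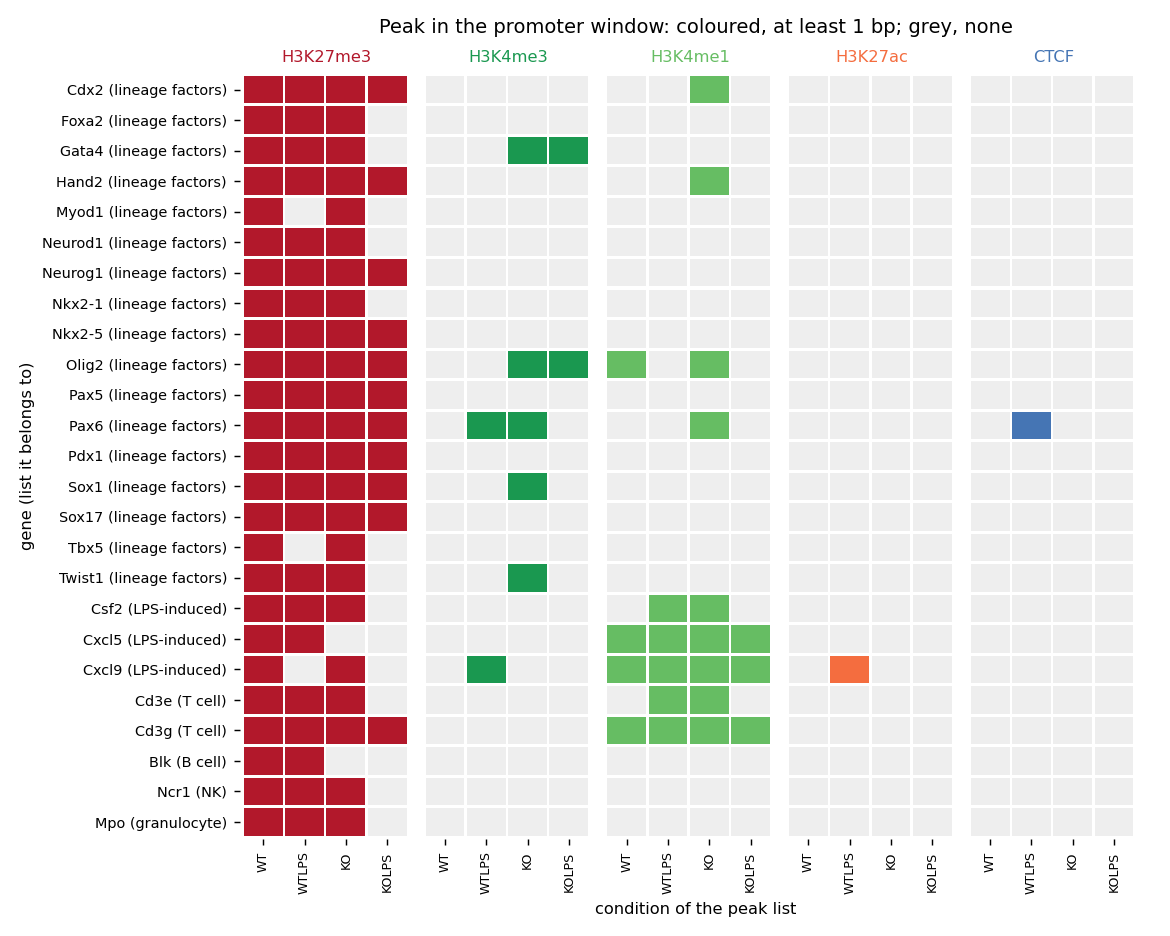
Peaks at the promoters of 25 listed genes with H3K27me3-only promoters (17 lineage transcription factors, 3 LPS-induced genes and 5 further markers of other cell types), by antibody and condition. A coloured cell means that a peak of that list shares at least 1 bp with the promoter window. H3K27me3 is filled at all 25 in WT by the rule, and H3K4me3 appears in KO at 5 of the 17 lineage factors.

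In the lists the rule did not use, most H3K27me3-only promoters again carried H3K27me3. A peak was found at 1345 of 1487 in KO (90.5%, 88.9 to 91.8), where 20.4% of all promoters had one. In WTLPS it was found at 1097 (73.8%, 71.5 to 75.9), beside 14.0% of all promoters, and in KOLPS at 549 (36.9%, 34.5 to 39.4), beside 5.69%. Since the promoters were chosen for a WT peak, a lower share is bound to appear in any other list, and both-marks promoters, chosen on the same WT list, give the comparison. Their shares were 86.1% in KO, 75.1% in WTLPS and 28.8% in KOLPS. The H3K27me3-only promoters were thus higher in KO by 4.33 percentage points (2.01 to 6.67) and in KOLPS by 8.12 (4.73 to 11.5), while the difference in WTLPS was -1.35 (-4.49 to 1.81). The median of the promoter window under peaks was 1030, 425, 956 and 0 bp in WT, WTLPS, KO and KOLPS. At both-marks promoters it was 745 bp in WT, under wider peaks (median 3257 against 2712 bp). The part of window coverage and peak width in the differences above was not tested. Over the 4167 promoters with any WT H3K27me3 peak, whatever its width, 62.7%, 79.9% and 26.5% had one in WTLPS, KO and KOLPS. All 4 lists had a peak at 488 promoters (32.8%), all but KOLPS at 556 (37.4%), WT and KO alone at 256, and WT alone at 80.

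**Figure D3:**
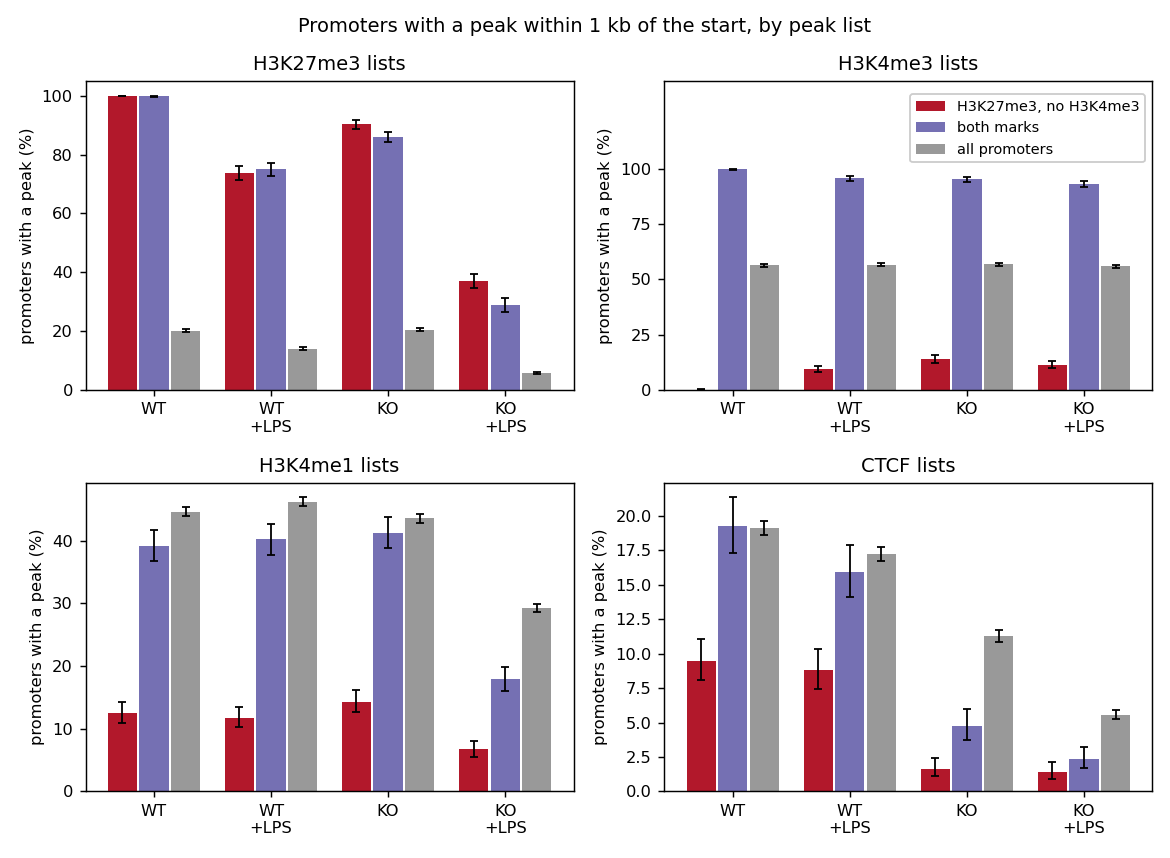
Share of promoters, in percent, with a peak of H3K27me3, H3K4me3, H3K4me1 or CTCF in each condition, for H3K27me3-only promoters, both-marks promoters and all promoters, with 95% Wilson intervals as lines. The WT values of H3K27me3 and H3K4me3 are set by the rule. In the H3K27me3-only promoters, H3K27me3 stays high in KO (90.5%), H3K4me3 is low in every list (at most 13.7%) and CTCF falls from 9.48% in WT to 1.61% in KO.

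The presence of H3K27me3 in the other lists went with the width of the WT peak. Among the 314 promoters under WT peaks of 1 to 1.5 kb, 56.1% had a peak in WTLPS, 82.2% in KO and 22.6% in KOLPS. Among the 348 under peaks of 5 kb or more, the shares were 92.0% (88.6 to 94.4), 98.0% (95.9 to 99.0) and 51.1%. Both-marks promoters showed the same order, from 52.0%, 71.1% and 10.4% in the narrowest bin to 87.2%, 92.6% and 39.1% in the widest, so that the pattern is not particular to promoters without H3K4me3.

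**Figure D4:**
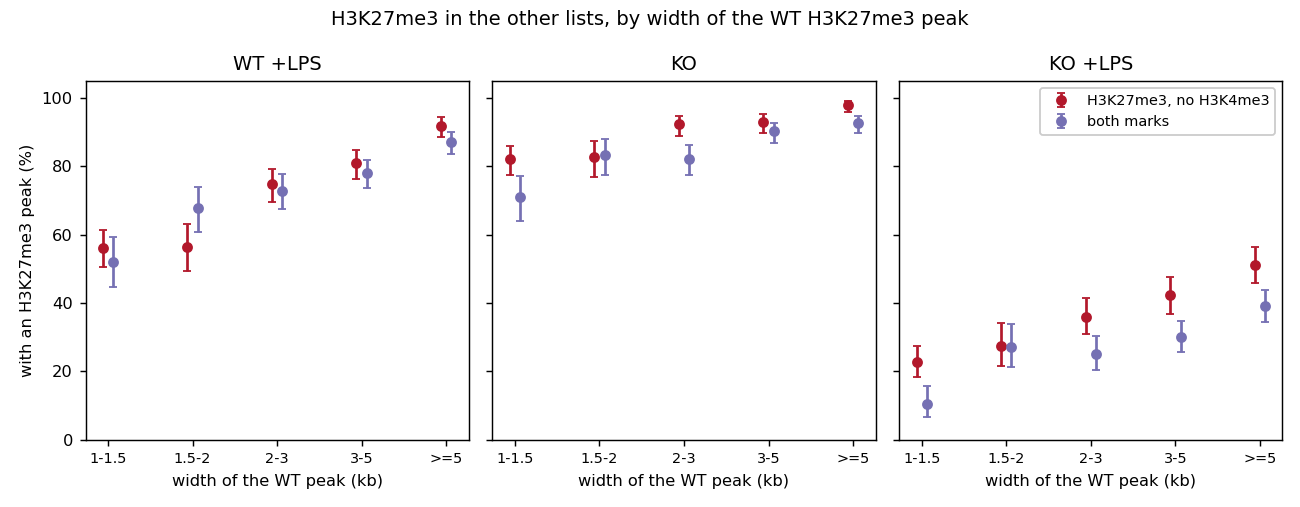
Share of promoters, in percent, with an H3K27me3 peak in WTLPS, KO and KOLPS by the width of the WT H3K27me3 peak over them, for H3K27me3-only and both-marks promoters. Points give the share and lines its 95% Wilson interval. For H3K27me3-only promoters the share in WTLPS goes from 56.1% under peaks of 1 to 1.5 kb to 92.0% under those of 5 kb or more.

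H3K4me3 was found in the other conditions at a minority of the H3K27me3-only promoters, and the peaks were weak. It was present at 137 in WTLPS (9.21%, 7.85 to 10.8), at 204 in KO (13.7%, 12.1 to 15.6) and at 169 in KOLPS (11.4%, 9.85 to 13.1). Over all promoters, 56.4%, 56.8%, 56.8% and 56.0% had H3K4me3 in WT, WTLPS, KO and KOLPS. Over the 9082 without H3K4me3 in WT, the shares were 2.62%, 3.48% and 2.75%, and over promoters with neither mark they were 1.08%, 1.14% and 0.752%. In all, 1202 promoters (80.8%) had no H3K4me3 peak in any condition, 285 had one in at least 1 and 63 in all 3. WTLPS and KO, which are both read against the same WT list, shared 86 promoters, 62.8% of those in WTLPS and 42.2% of those in KO. The median −log10 p was 6.37, 6.24 and 6.48 in WTLPS, KO and KOLPS, against 82.1, 74.3 and 49.5 over all promoters with a peak. The median fold was 4.61, 4.54 and 4.70 against 28.8, 26.4 and 19.7, and the peaks covered a median of 368, 467.5 and 442 bp of the window. With only the peaks of each list above its median −log10 p, which changed the set to 2031 promoters, 2.81% had H3K4me3 in WTLPS and 15.3% in KO. In KO, H3K4me3 lay at 194 of the 1345 promoters that still had H3K27me3 (14.4%) and at 10 of the 142 that did not (7.04%).

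The strongest H3K4me3 peaks lay at genes of various functions. Tchh, which encodes trichohyalin of the hair follicle, had −log10 p of 29.6, 27.8 and 35.7 in WTLPS, KO and KOLPS, together with H3K27me3 over 2001, 2001, 1555 and 1720 bp in WT, WTLPS, KO and KOLPS. Arhgef5, a guanine nucleotide exchange factor, had 5.45, 34.8 and 15.3, with H3K27me3 in WT and KO alone (1291 and 1293 bp). Meis2, a homeobox cofactor of Hox proteins, had 4.55, 32.0 and 8.51. These 3 promoters had H3K4me3 in all 3 lists, whereas others had it in KO but not in WTLPS. Bend5 had 32.0 in KO and 19.1 in KOLPS, and Olig1, a factor of oligodendrocytes, had 16.1 and 7.48. Pard3, a cell polarity gene, had 16.1 and 15.3, and Bace2, a protease, had 16.1 and 16.6. Rax, a homeobox factor of the eye, had 21.1 in KO and no peak in either LPS condition. In WTLPS, Lypd3 had 18.9 and Six2, a factor of kidney progenitors, had 12.8, and neither had a peak in KO. Pth2 had 17.96 in WTLPS and 18.9 in KO but none in KOLPS, and Slc16a12, a creatine transporter, had 7.95, 17.4 and 9.13.

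Among 38 lineage transcription factors of non-myeloid tissues, 18 were H3K27me3-only. All 18 had H3K27me3 in KO, 15 in WTLPS and 10 in KOLPS, beside 90.5%, 73.8% and 36.9% of all H3K27me3-only promoters. H3K4me3 was found at 6 in KO, 1 in WTLPS and 3 in KOLPS, beside 13.7%, 9.21% and 11.4%. Those in KO included Gata4 (−log10 p 5.31), of heart and endoderm, Olig2 (4.43), of oligodendrocytes and motor neurons, Pax6 (4.29), of the eye, Sox1 (3.26), of neural progenitors, and Twist1 (5.31), of mesoderm. Pax6 also had 10.5 in WTLPS. These peaks were weak beside the median of 74.3 over all promoters with H3K4me3 in KO.

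H3K27me3-only promoters were poorer in CpG than both-marks promoters. Over 500 bp either side of the start, the median ratio of observed to expected CpG was 0.434, against 0.719 at both-marks promoters, 0.180 at promoters with neither mark and 0.560 over all. The median GC content was 54.1%, 62.2%, 45.8% and 55.1%. A promoter was called high-CpG above a ratio of 0.75 with GC above 55%, low-CpG below a ratio of 0.48, and intermediate otherwise. Of the H3K27me3-only promoters 197 (13.2%) were high, 471 (31.7%) intermediate and 819 (55.1%) low, whereas both-marks promoters were 41.2%, 50.03% and 8.80%. The classes followed the gene families. All 72 olfactory receptor, 15 interferon, 10 interleukin and 6 chemokine promoters were low, while of the 59 homeobox promoters 15 were high, 31 intermediate and 13 low. The TATA box TATAAA, on the gene strand 40 to 20 bp before the start, was present at 43 H3K27me3-only promoters (2.89%), at 2.34% of all promoters and at 4.39% of those with neither mark.

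The CpG class went with the marks found in other conditions. In KO, H3K4me3 was found at 58 of the high-CpG promoters (29.4%), 111 intermediate ones (23.6%) and 35 low ones (4.27%), a difference between high and low of 25.2 percentage points (19.03 to 32.0). In WTLPS the shares were 21.3%, 14.4% and 3.30%, with a difference of 18.02 (12.7 to 24.3), and in KOLPS they were 25.4%, 20.6% and 2.69%, with 22.7 (17.0 to 29.3). At promoters with neither mark, H3K4me3 in KO was found at 3.95% of high, 3.54% of intermediate and 0.927% of low ones, so that the H3K27me3-only promoters were higher in each class. H3K27me3 was also more often present at high-CpG than at low-CpG promoters, at 94.9% against 87.2% in KO (difference 7.74, 3.21 to 11.1) and at 81.2% against 68.3% in WTLPS (13.0, 6.18 to 18.8). In KOLPS it was 39.1% against 32.5%, and the interval of the difference, 6.61 (-0.712 to 14.2), includes 0. GC content moves with CpG class, and the median width of the WT peak was 2869 bp in the high and 2467 bp in the low class. Their part in these differences was not tested.

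**Figure D5:**
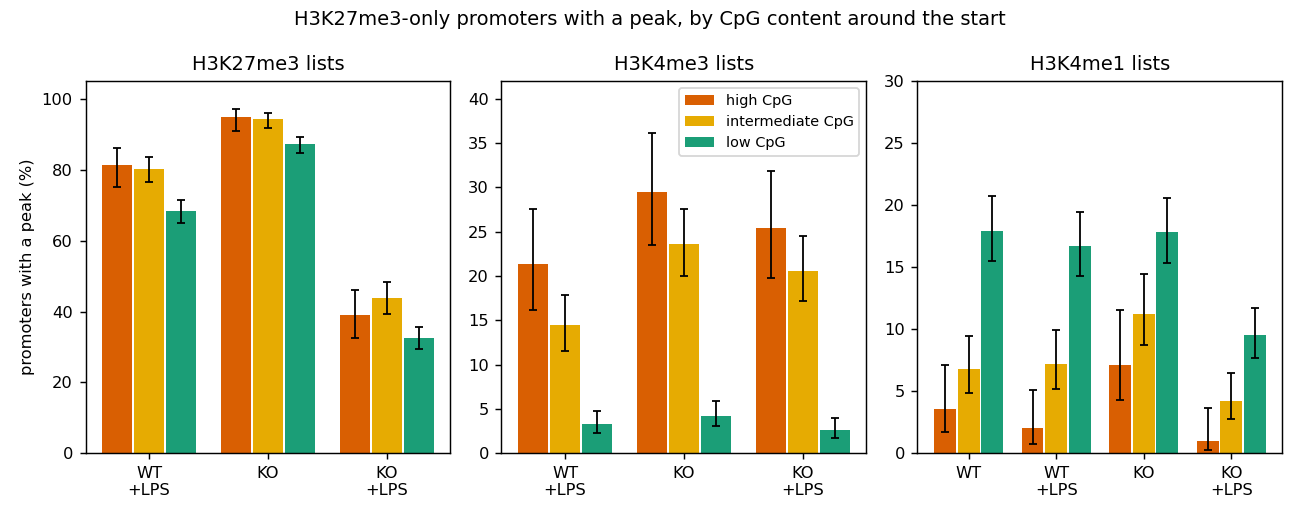
Share of H3K27me3-only promoters, in percent, with a peak of H3K27me3, H3K4me3 or H3K4me1 in each condition, split by CpG class into high (n = 197), intermediate (n = 471) and low (n = 819), with 95% Wilson intervals as lines. H3K4me3 in KO was found at 29.4%, 23.6% and 4.27% of them, and H3K4me1 in WT has the opposite order of high and low (3.55% and 17.9%).

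H3K4me1 was scarce at H3K27me3-only promoters. A peak was found at 186 in WT (12.5%, 10.9 to 14.3), beside 44.7% of all promoters, at 175 in WTLPS (11.8%, beside 46.2%), at 213 in KO (14.3%, beside 43.6%) and at 100 in KOLPS (6.72%, beside 29.3%). In WT the share was lower than at both-marks promoters (39.2%), with a difference of -26.7 percentage points (-29.7 to -23.6), and than at promoters with neither mark (15.2%), with a difference of -2.68 (-4.49 to -0.712). No condition had H3K4me1 at 1170 promoters, all 4 had it at 65, and KO alone at 61. By CpG class, 3.55% of the high and 17.9% of the low promoters had H3K4me1 in WT, a difference of -14.4 (-17.7 to -10.0). The intermediate class had 6.79%. At promoters with neither mark the shares were 1.32% of high, 9.29% of intermediate and 15.8% of low ones. H3K27me3-only promoters were thus lower in the intermediate class alone. The part of CpG content in the difference from promoters with neither mark was not tested. Promoters with H3K4me1 in WT more often had H3K4me3 in KO, at 21.0% against 12.7% (difference 8.29, 2.71 to 14.9), whereas in WTLPS the interval of the difference, 2.99 (-1.24 to 8.60), includes 0. All 7 H3K27me3-only promoters with H3K27ac in WT were among the 186 with H3K4me1. The supplier in the peak names of H3K4me1 is not the one in the labels, so the antibody is uncertain.

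Of 45 LPS-induced genes of myeloid cells, 4 were H3K27me3-only, among them Csf2, Cxcl5 and Cxcl9. This share (8.89%, 3.51 to 20.7) was close to the 7.15% over all promoters, which its interval includes. Cxcl9, a chemokine that attracts T cells, had 302, 0, 168 and 0 bp of H3K27me3 in WT, WTLPS, KO and KOLPS and H3K4me1 over 2001, 2001, 2001 and 1708 bp. In WTLPS it also had H3K4me3 (−log10 p 4.55), H3K27ac (5.32) and p65 (13.5). Csf2, which encodes GM-CSF itself, lay with the cytokine gene Il3 under a peak of 18890 bp at chr11:54250079-54268968, with 1286, 1097, 1098 and 0 bp of H3K27me3 and H3K4me1 over 0, 1006, 672 and 0 bp. Cxcl5, a neutrophil chemokine, had 911, 183, 0 and 0 bp of H3K27me3 and 1793, 2001, 880 and 380 bp of H3K4me1. At Cxcl9 the H3K27me3 peak was absent in both LPS lists, as it was at 336 of the 1487.

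H3K27ac, the mark of active promoters and enhancers, was nearly absent. It was found at 7, 15, 12 and 15 H3K27me3-only promoters in WT, WTLPS, KO and KOLPS (0.471%, 1.01%, 0.807% and 1.01%), beside 43.0%, 39.8%, 43.5% and 39.4% of all promoters. Promoters with neither mark had H3K27ac at 4.63% in WT, a difference of -4.16 percentage points (-4.74 to -3.47). In WTLPS, 7 of the 15 H3K27me3-only promoters with H3K27ac had no H3K27me3 peak. They included Gbp10, an interferon-inducible GTPase (H3K27ac −log10 p 9.26), Fgfbp1 (11.4), Gm8369 (12.6), Mmp7, a matrix metalloproteinase (4.44), and Cxcl9 (5.32). In KO, 3 of the 12 had none. Klk1b11, a kallikrein with near-identical neighbours, had H3K27ac of 7.30, 4.44, 13.0 and 12.6 in the 4 lists and H3K27me3 over 967, 237, 0 and 0 bp. Ccl24, a chemokine that attracts eosinophils, had both H3K27ac (6.75, 7.06 and 5.69 in WT, KO and KOLPS) and H3K27me3 (2001, 891, 594 and 294 bp).

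Cohesin and the signal-dependent factors p65 and STAT5 were rare at H3K27me3-only promoters. SMC1 was found at 79, 80, 18 and 8 of them in WT, WTLPS, KO and KOLPS (5.31%, 5.38%, 1.21% and 0.538%), beside 23.1%, 19.7%, 18.5% and 11.7% of all promoters. In WT, 5.28% of promoters with neither mark had SMC1, a difference of 0.0348 percentage points (-1.14 to 1.39). Of all promoters without H3K4me3 in WT, 5.25% had it, so that this low share was not particular to H3K27me3-only promoters. p65 was found at 0, 3, 0 and 0, beside 0.322%, 1.86%, 0.231% and 1.57% of all promoters. These 3, named after their values were seen, were Cd300e, an activating receptor of myeloid cells (−log10 p 34.8), Cxcl9 (13.5) and Tmigd1 (7.57). Promoters with neither mark had p65 at 0.428% in WTLPS. The difference of -0.226 percentage points (-0.454 to 0.185) includes 0. STAT5 was found at 2 in WT and 4 in KO, beside 2.47% and 2.08% of all promoters. They were Gimap1 (10.8) and Klk1b11 (7.73) in WT and Chil4 (5.93), Fgf23 (7.79), Klk1b11 (8.39) and Vmn2r-ps159 (7.28) in KO, all named after their values were seen. Promoters with neither mark had STAT5 at 0.678% in WT and 0.531% in KO. The differences were -0.544 percentage points (-0.789 to -0.151) in WT and -0.262 (-0.523 to 0.184) in KO, the latter including 0.

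CTCF was found at fewer H3K27me3-only promoters than both-marks promoters, and few of its peaks remained in KO. It was present at 141 in WT (9.48%, 8.10 to 11.1), beside 19.1% of all promoters, and at 131 in WTLPS (8.81%, beside 17.2%). Both-marks promoters had 19.2% in WT and promoters with neither mark had 6.86%. In KO, 24 had a CTCF peak (1.61%, 1.09 to 2.39, beside 11.3%) and in KOLPS 21 (1.41%, beside 5.58%). All 24 were among the 141, so that 17.0% of these had CTCF in KO, against 37.6% of the 3977 promoters with CTCF in WT overall. Of the 3977, however, 3017 had H3K4me3 and no such H3K27me3 peak. CTCF lay at 280 both-marks promoters in WT and 69 in KO, and at 465 and 122 promoters with neither mark. A low share in KO was thus not particular to H3K27me3-only promoters. The 24 H3K27me3-only promoters with CTCF in KO had a median −log10 p of 90.4 in WT and the other 117 had 26.0. SMC1 lay at 63 of the 141 in WT (44.7%), at 66 in WTLPS, 5 in KO (3.55%) and 2 in KOLPS. Over all promoters with CTCF in WT the shares were 65.7%, 60.1%, 32.7% and 20.7%. Most of those promoters had H3K4me3, so the 2 sets are not alike, and the SMC1 shares were not split by class. The nearest WT CTCF peak was a median of 9762 bp from the start at H3K27me3-only promoters, 6055 bp at both-marks promoters and 20589 bp at promoters with neither mark.

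The strongest CTCF peaks differed in how much remained in KO. Ajm1, a gene of epithelial junctions, had −log10 p of 261, 183, 40.6 and 38.0 in WT, WTLPS, KO and KOLPS, and Lyzl6, a lysozyme-like protein, had 125, 98.0, 46.8 and 28.5. Ccdc110 had 144, 94.6, 23.7 and 10.5, and its SMC1 peak was present in WT and WTLPS alone (63.7 and 67.4). Kctd16, a subunit of GABA B receptors, had 230 in WT and 147 in WTLPS but no peak in CTCF-KO cells. Gm6525 likewise had 203 and 161. Pth2r, the receptor for the peptide that Pth2 encodes, had 185, 135 and 12.8 and none in KOLPS. Thus 8 of the 10 strongest had a KO peak, each with a lower −log10 p than in WT. Fam19a2 (161, 108, 25.9 and 24.3), Pcnx2 (158, 116, 23.7 and 17.1), 4930402F06Rik (118, 69.8, 31.5 and 22.2) and Nme9 (117, 116, 7.77 and 11.4) complete them. At Hoxc10, under the wide Hoxc peak, CTCF was weaker, at 13.3 and 18.4, and was absent in KO and KOLPS.

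The strict CTCF motif (CC, any 3 bases and AGGGGGC), searched on both strands of the window, was present at 51 H3K27me3-only promoters (3.43%) and at 4.48% of all promoters. The looser motif shown above for 3 promoters, which includes every strict match, was present at 34.2% and 37.2%. Among the 141 with a WT CTCF peak, 19 had the strict motif (13.5%), close to the 12.3% of all promoters with CTCF, and 2.38% of those without a peak had it. The looser motif was also present at 32.0% of those without a peak, against 54.6% of the 141. The looser motif lay under the CTCF peak at 51 of the 141 (36.2%), beside 38.5% of the 3977.

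Loss of CTCF from these promoters was set against their H3K27me3. In KO, H3K27me3 was present at 132 of the 141 with CTCF in WT (93.6%) and at 90.1% of those without, a difference of 3.50 percentage points (-2.01 to 6.94). With the stronger peaks of each list (above its median −log10 p) the difference was 8.39 (3.29 to 11.7), with 1 threshold per antibody 9.10 (2.34 to 13.4), and with at least 500 bp of overlap 14.0 (5.74 to 18.1). The difference was positive under all 6 settings tried, and its interval left out 0 under these 3 and no other. In WTLPS, where CTCF is present, the shares were 69.5% and 74.2%, a difference of -4.72 (-13.1 to 2.68), and in KOLPS they were 46.1% and 36.0%, a difference of 10.1 (1.71 to 18.7). Within WT peaks under 2 kb the difference in KO was 3.94 (-8.67 to 11.9) and within wider ones 3.54 (-2.09 to 5.89). At both-marks promoters it was 3.48 (-1.14 to 7.29), close to the value of H3K27me3-only promoters, while in KOLPS it was 2.82 (-2.96 to 8.99). H3K4me3 in KO was found at 12.8% with and 13.8% without CTCF in WT, a difference of -1.05 (-5.99 to 5.69), and in WTLPS at 14.2% and 8.69%, a difference of 5.49 (0.414 to 12.3). H3K4me1 in KO was found at 21.3% and 13.6%, a difference of 7.68 (1.43 to 15.3). In WTLPS, where CTCF is present, it was found at 17.0% and 11.2%, a difference of 5.80 (0.199 to 13.0). In KOLPS the difference was 2.76 (-1.26 to 8.79). The H3K4me1 difference was thus not limited to the lists of CTCF-KO cells, though its interval in WTLPS came close to 0.

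Some H3K27me3-only promoters sat beside each other. Of the 1487, 489 (32.9%) lay in 204 runs of at least 2 neighbouring protein-coding genes that all met the rule. The longest run, 9 genes at chr4:88558245-88691359, held Ifna15 to Ifnab, and the next, 7 genes at chr4:88816228-88880201, held Ifna7 to Ifne. A run of 6 at chr1:74791516-74951672 held Wnt10a, Cdk5r2, Fev, Cryba2, Cfap65 and Ihh, which include a Wnt and a Hedgehog ligand, and runs of 5 held the Gimap genes and Hoxc8, Hoxc6, Hoxc5, Hoxc4 and Smug1. Runs of 4 held Nkx2-1, Nkx2-9, Pax9 and Slc25a21 on chromosome 12, and Gpx8, Gzma, Esm1 and Gzmk, of which Gzma and Gzmk encode granzymes of cytotoxic lymphocytes, on chromosome 13.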

How the data were processed

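Peak lists from ChIP-seq of BMDCs in 4 conditions were used: 30 lists, 1 for each antibody and condition, while 4 inputs had none. Per the submitters' processing notes, BWA 0.7.12, Picard 1.77, MACS2 2.1.2 and deepTools 3.1.3 were used on mm10. The authors deposited a fold over background (a ratio) and −log10 values of p and q with every peak. The H3K27me3 and H3K4me1 lists are broad peaks, whose values are averages over a region, and the others are narrow peaks. Peak calling thresholds differ between lists, and shares of promoters with a peak move with them.

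Promoters came from GENCODE release 21 for mouse. A peak counted when at least 1 bp of the 2001 bp window was shared. All 1393623 peaks lay within GRCm38 chromosome ends. Shares have 95% Wilson intervals and differences 95% Newcombe intervals, with no test, since each condition has 1 list. Python 3.11.15, numpy 2.4.6, scipy 1.17.1 and matplotlib 3.10.9 were used, and overlaps and intervals were tested on simulated data. Named genes were the 10 widest peaks, the 10 strongest gained H3K4me3 peaks in WTLPS and in KO, the 10 strongest CTCF peaks, up to 10 with H3K27ac and no H3K27me3, the 3 of highest fold per family, and all genes of the marker, lineage and LPS lists, of which some are not reported here. Other interleukin, chemokine, interferon and Hox genes, the looser CTCF motif and the paired GAAA motif were chosen after their values were seen. The promoters and lists were chosen with earlier results of these data known. Alternatives were the stronger peaks of each list (above its median −log10 p), 1 threshold per antibody, a window of 2.5 kb, an overlap of 500 bp, H3K27me3 peaks of 2 kb, and all annotated starts.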

Additional observations from a re-analysis of the deposited data

How the results depend on the processing

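Each of 10 values was recomputed under 6 alternatives. The values were the number of H3K27me3-only promoters, the shares of H3K27me3, H3K4me3, H3K4me1 and CTCF given here, and the CTCF difference. Of the recomputed values, 30 stayed within a set limit of the main value and 30 moved beyond it. The limit was the 95% interval for shares and the difference, and a fixed ratio for the number. A reversal could not be scored, since counts and shares have no sign and the interval of the CTCF difference includes 0. The other values were not recomputed. The number of H3K27me3-only promoters stayed between 1238 and 2031 under 5 of them and was 980 with H3K27me3 peaks of at least 2 kb, which by construction leaves out narrower peaks. H3K27me3 in WTLPS was 62.9% with the stronger peaks of each list, 77.3% with 1 threshold per antibody, 85.1% with 2.5 kb windows, 52.5% with 500 bp of overlap and 82.9% with peaks of 2 kb. In the same order it was 86.0%, 83.8%, 95.2%, 81.1% and 94.6% in KO, and 24.9%, 40.3%, 56.1%, 17.0% and 43.4% in KOLPS. H3K4me3 in WTLPS was 2.81% with the stronger peaks, where it was 15.3% in KO, but that cut was higher in WTLPS. H3K4me3 was 7.81% in WTLPS with 500 bp of overlap and 16.1% in KO with peaks of 2 kb. H3K4me1 in WT was 8.42%, 21.2% and 7.36%, and CTCF in WT was 7.88%, 18.3% and 5.28%, with the stronger peaks, 2.5 kb windows and 500 bp of overlap. CTCF in KO was 4.65% with 2.5 kb windows and 0.297% with 500 bp of overlap. The difference in H3K27me3 in KO between promoters with and without CTCF was 8.39, 9.10 and 14.0 percentage points with the stronger peaks, 1 threshold and 500 bp of overlap. Wider windows and stricter overlaps or thresholds count more or fewer peaks by construction, and further causes were not tested. Leaving out genes with H3K4me3 at any annotated start moved none of these values beyond their interval.

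No paired analysis was possible because each antibody and condition has 1 list, and for the same reason no replicate was left out. Differences between conditions therefore have no replicate check. The KOLPS H3K27me3 list is much shorter than the others, and the part of its length in the KOLPS values was not tested. Absence of a peak means only that none was called at that list's threshold.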

Other observations

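Olfactory receptors, the largest family, were H3K27me3-only in 72 of 1087 genes (6.62%), close to the 7.15% over all promoters. Vomeronasal receptors had 6 of 326 (1.84%) and Zfp genes 6 of 358 (1.68%), while none of 73 ribosomal protein and 67 histone genes was. Of the 72 olfactory receptor promoters, 55 had H3K27me3 in WTLPS, 65 in KO and 30 in KOLPS, and none had H3K4me3 in any condition. Olfr214 had H3K27me3 over 2001, 1768, 2001 and 1963 bp in WT, WTLPS, KO and KOLPS. These receptors are near-identical in places, so that reads may be shared among them. By chromosome, the share of promoters that were H3K27me3-only ranged from 5.0% on chromosome 10 to 8.92% on chromosome 15.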
